A study of Mus musculus with 12 samples.

Results

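The genes described here encode the glutathione, thioredoxin and NRF2 antioxidant systems of the mouse testis. They are 45 genes taken from a list of enzymes and regulators with known antioxidant roles, not by their values. Earlier results of these data were known when the list was chosen. The genes were found among 21959 genes by the symbol of their Ensembl identifier. All 45 were in the table, 44 had enough counts to be tested among 15682 genes, and Gpx1 had 20 counts in all 12 libraries together. The libraries hold polyadenylated RNA from whole testis of wild type male ICR mice, an outbred laboratory stock. Every animal received a daily dose by stomach tube: saline, or blueberry extract (BBE) at 50, 100 or 200 mg/kg per day, with 3 libraries in each of the 4 groups. The titles give the mice as 9 months old and the design text as 8 months old, chosen to stand for natural ageing of male reproduction, and no group of young mice was among the samples. The study asked what the extract does to the ageing testis.

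Cells remove hydrogen peroxide and lipid peroxides through a pair of linked reducing systems that draw on NADPH. In the glutathione system a small thiol peptide is made from amino acids, spent by glutathione peroxidases and transferases, and restored by glutathione reductase; in the thioredoxin system peroxiredoxins are recharged by thioredoxins, which thioredoxin reductases restore. Superoxide dismutases and catalase act upstream and alongside. NRF2 is the transcription factor that raises many of these genes under oxidative or electrophilic stress, and KEAP1 holds it low by marking it for degradation. Sperm have membranes rich in polyunsaturated lipids and little cytoplasm, and the testis has forms of its own of several of these enzymes.

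Library totals ran from 14382378 to 19118265 counts, and values below are normalised counts (CPM), scaled to a common library size with TMM factors. No source says that the 3 libraries of a group came from separate animals; the p-values then reflect library-to-library spread alone, possibly technical. The members varied within groups with a median SD of 0.0551 in saline, 0.0704 at 50 mg/kg, 0.128 at 100 mg/kg and 0.0625 at 200 mg/kg on the log2 scale of CPM + 0.5. Over all genes these medians were 0.0865, 0.0917, 0.13 and 0.0884 in the same order. At 100 mg/kg library 3 differed most from its fellows: the chi-square of its counts over its degrees of freedom was 12.2 for the pair with library 1 and 8.06 for that with library 2, and from 1.59 to 3.07 for the remaining pairs of replicates. The markers were those of testis: transcripts of elongating spermatids summed to 16641 to 25157 CPM in all 12 libraries, and markers of the epididymis to at most 0.809 CPM, with Lcn8 at 0. In whole tissue, fewer cells of a type and less RNA per cell cannot be told apart. Reads of 8 members may be shared with near copies, since over 5% of their 50-base stretches also occur in other transcripts, and their values are uncertain; the shares are 68.9% for Gpx4, 62.3% for Gstp1, 23.1% for Gstm1 and for Sod1, 11.8% for Gstm6, 10.9% for Prdx1, 9.36% for Gstm2 and 8.96% for Prdx2. Another gene on the opposite strand overlaps exons of Hmox2, Nqo2, Gss, Txnrd2, Prdx2 and Prdx5, and the sources used here do not say whether counting took the strand into account.

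The most abundant members were enzymes of sperm and germ cells and a group of glutathione transferases. Per kilobase of transcript (median length over the annotated transcripts of a gene), saline testes held 1393 ± 10.3 CPM of Gstm5, a mu-class glutathione transferase, and 1316 ± 59.9 CPM of Gpx4, the peroxidase that reduces lipid hydroperoxides and forms part of the sperm midpiece (SD, n = 3). The difference exceeded the SD of either gene. Gstm1 followed with 741 ± 9.12, then Hmox2 with 551 ± 19.2, the sperm thioredoxin Txndc2 with 441 ± 17.1 and Gstm2 with 406 ± 10.3; Txnrd3, a reductase of thioredoxin and glutathione best known from testis, had 245 ± 3.36 and Gsto2 244 ± 4.85, which do not differ beyond their spread. Txndc8 with 225 ± 6.02 and Prdx4 with 225 ± 5.49, which do not differ beyond their spread either, closed the highest 10, and the same 10 genes led when the longest transcript gave the length. The order was not computed on the principal transcript of the annotation, which for Sod1 has 641 bases against a median length of 2305.5. At the low end stood Gpx7 with 1.13 ± 0.17 and Gpx1 with 0.16 ± 0.0983 CPM per kilobase. Gpx1, the cytosolic peroxidase that is abundant in many other tissues, was thus at or near 0 in every library.

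**Figure D1:**
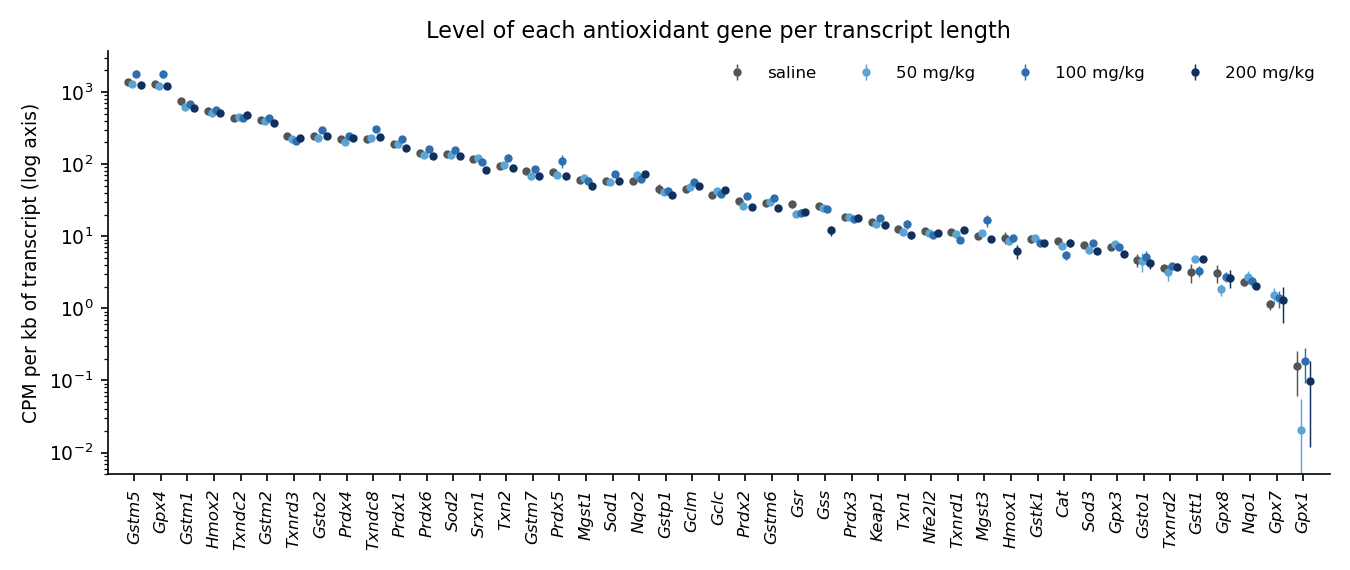
Mean level of each of the 45 genes per kilobase of transcript (CPM per kb, log axis, bars SD, n = 3 libraries) in saline and at 50, 100 and 200 mg/kg, ordered by the saline level. Gstm5 and Gpx4 lie at the top near each other, Gpx7 and Gpx1 at the bottom.

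Of the antioxidant genes that passed against saline, most were lower at 50 and 200 mg/kg and most were higher at 100 mg/kg, where the split turned round when a trend on principal transcript length was taken out (11 higher, 16 lower). At 50 mg/kg, 11 of 44 members passed an adjusted p under 0.05 (edgeR quasi-likelihood test, Benjamini-Hochberg over 15682 genes), 2 higher and 9 lower, which is 25.0% of the members beside 17.2% of all genes. At 100 mg/kg 21 passed, 16 higher and 5 lower, or 47.7% of the members beside 52.4% of all genes, so the number of changed members was no larger than the background. At 200 mg/kg 16 passed, 4 higher and 12 lower, or 36.4% of the members beside 18.6% of all genes. Split by direction, the background was 9.21% higher and 8.02% lower at 50 mg/kg, 25.6% higher and 26.8% lower at 100 mg/kg, and 10.3% higher and 8.3% lower at 200 mg/kg. The median log2 fold change of the members was -0.070, 0.077 and -0.13 at the 3 doses in rising order, beside -0.00056, 0.0086 and -0.0013 over all genes tested. The 3 comparisons share their saline libraries. Within the saline, 50 and 200 mg/kg groups the members spread less than all genes, which makes a given change easier to call. The part of this in the members' shares was not tested. Treated and saline libraries did not overlap for 19 members at 50 mg/kg, 23 at 100 mg/kg and 25 at 200 mg/kg, against 37.6%, 58.7% and 39.2% of all genes in the same order of doses. These counts depended on single libraries. At 50 mg/kg 3 members passed without library 3 of that dose, or 6.82% beside 10.8% of all genes. Without saline library 2 there were 5 (11.4%, beside 10.9% of all genes), and without saline library 1 or 3 there were 6 (13.6%, beside 12.8% and 10.8%). Without library 1 at 50 mg/kg there were 7 (15.9%, beside 13.6% of all genes). At 200 mg/kg 9 passed (20.5%) without saline library 2 or without library 1 or 2 of that dose, beside 12.2% to 13.4% of all genes. Without library 3 of the 100 mg/kg group the counts were 14, 19 and 23 members at the 3 doses in rising order. These were 31.8%, 43.2% and 52.3% of the members, beside 25.3%, 46.9% and 26.3% of all genes.

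**Figure D2:**
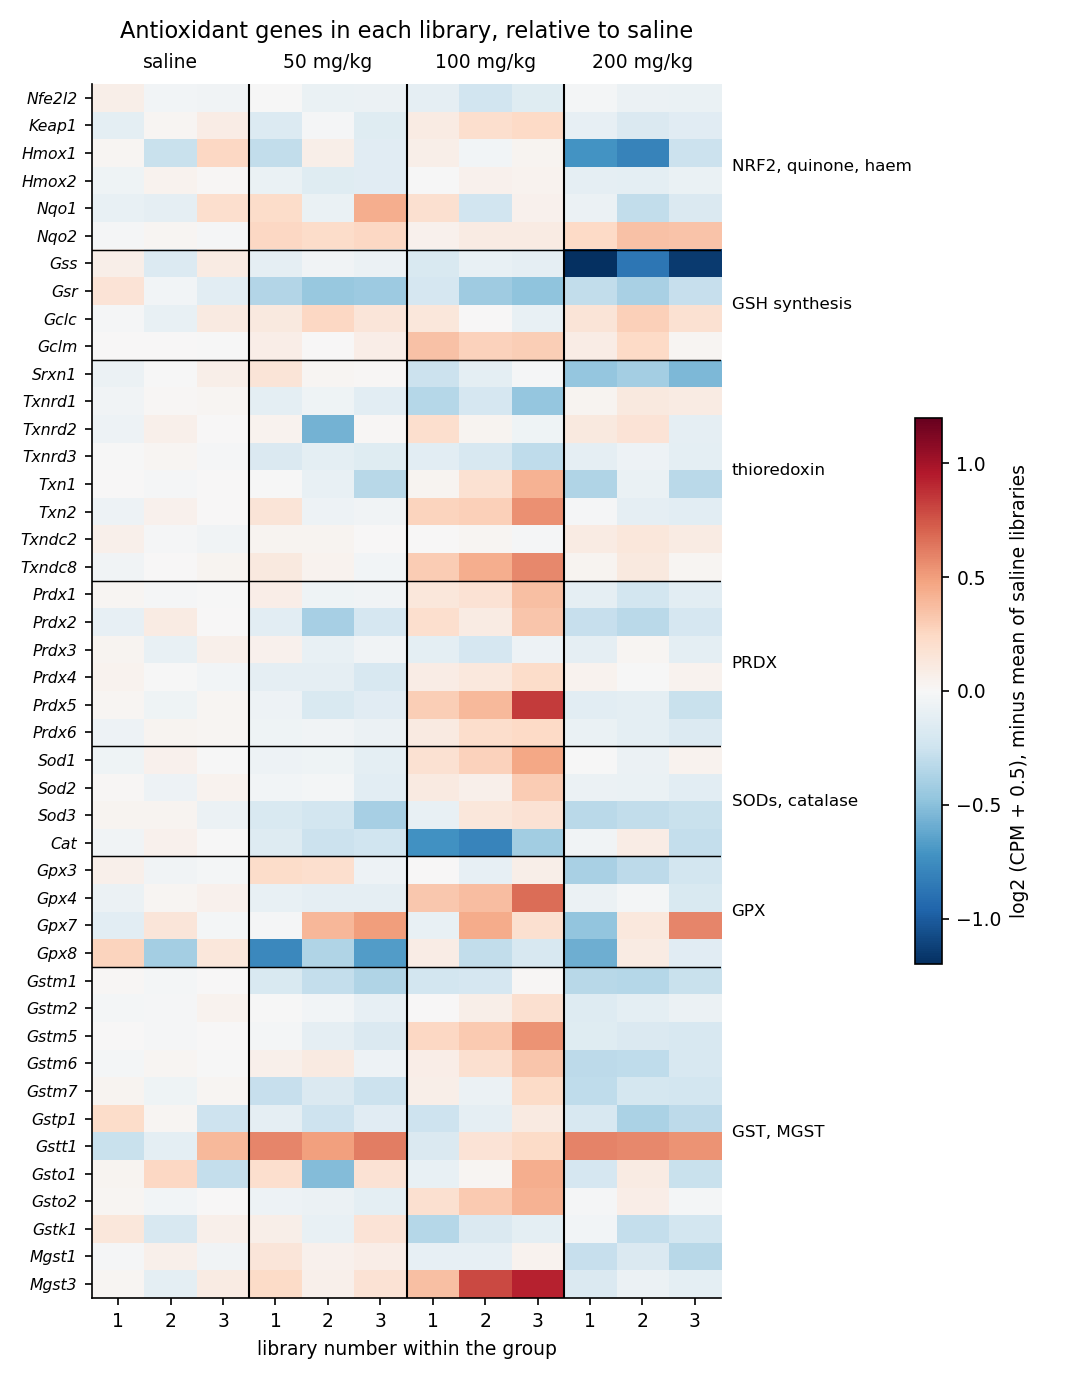
Level of the 44 tested genes in each of the 12 libraries (columns, by group), as log2 (CPM + 0.5) minus the mean of the saline libraries (red higher, blue lower), with genes grouped by role. Gss stands out as blue at 200 mg/kg, and many peroxiredoxin and transferase genes are red at 100 mg/kg.

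Of the 44 members, 34 passed in at least 1 of the 3 comparisons, or 77.3% beside 62.4% of all genes. Gsr and Gstm1 passed as lower at all 3 doses (4.55% of members, 1.63% of all genes), and 0 members passed as higher at all 3 (3.22% of all genes). Lower at both 50 and 200 mg/kg were Gsr, Gstm1, Gstm7, Prdx2 and Sod3 (11.4% of members, 3.65% of all genes), and higher at both were Nqo2 and Gstt1 (4.55% and 5.83%). The members Gstm5, Gstm6, Prdx2 and Prdx4 passed in opposite directions at different doses (9.09% of members, 4.9% of all genes), each higher at 100 mg/kg and lower at another dose. None of these rises held with the correction on principal transcript length. Prdx4 and Gstm6 turned negative there, and Prdx2 and Gstm5 had log2 values of 0.039 and 0.055. On median length only the rise of Gstm5 held. Passing at 200 mg/kg and at no other dose were 7 members, Hmox1, Gss, Srxn1, Mgst1 and Gstp1 as lower and Gclc and Txndc2 as higher (15.9% of members, 3.79% of all genes). With a correction for transcript length, Gss and Mgst1 (median and principal) and Gstp1 (principal) also passed as lower at 100 mg/kg. Srxn1 did so under 3 alternatives, among them the correction on median length (log2 -0.34, adjusted p = 4.48e-05). Passing at 100 mg/kg alone were 14 (31.8% and 36.3%), and at 50 mg/kg alone Hmox2 and Gpx8 (4.55% and 2.95%). A call at 1 dose and none at another does not show that the doses differ. Tested directly, 27 members differed between 100 and 50 mg/kg (21 higher and 6 lower at 100 mg/kg, 51.5% of all genes passing), 6 between 200 and 50 mg/kg (1 higher and 5 lower at 200 mg/kg, 5.05% of all genes) and 34 between 200 and 100 mg/kg (7 higher and 27 lower at 200 mg/kg, 53.0% of all genes). Corrected on principal transcript length, 100 and 50 mg/kg differed for 23 members (13 higher, 10 lower, 44.9% of all genes). For 200 and 100 mg/kg these were 27 (11 higher, 16 lower, 43.9% of all genes). On median length the counts were 26 (19 higher, 7 lower, 49.5% of all genes) and 25 (5 higher, 20 lower, 49.9% of all genes).

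The largest change of any member was a fall of Gss at 200 mg/kg. Gss encodes glutathione synthetase, which joins glycine to gamma-glutamylcysteine in the last step of glutathione synthesis (ENSMUSG00000027610, chromosome 2 from 155563181 to 155592810, minus strand, GRCm38). It had 9.36, 12.7 and 10.4 CPM in the 200 mg/kg libraries, against 24.8, 20.9 and 25.2 CPM in saline libraries. All 3 treated libraries lay below every saline library, and the gene was 2.2-fold lower (log2 -1.14 ± 0.10 SE, adjusted p = 9.14e-09). The other doses stood beside saline, with 21.8 to 22.8 CPM at 50 mg/kg and 20.8 to 22.2 CPM at 100 mg/kg. Corrected on median or principal transcript length, Gss also passed as lower at 100 mg/kg (log2 -0.23 and -0.24, adjusted p = 0.0347 and 0.02). Acss2, which overlaps Gss on the opposite strand, had 65.6 ± 1.37 CPM at 200 mg/kg and 70.1 ± 1.37 CPM in saline (log2 -0.098 ± 0.051, adjusted p = 0.2) and did not pass. The call of Gss at 200 mg/kg held under all 23 alternatives, with a log2 fold change between -1.26 and -1.04.

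Srxn1 and Mgst1 fell at 200 mg/kg with less change. Srxn1 encodes sulfiredoxin, which repairs peroxiredoxins that have been overoxidised (ENSMUSG00000032802, chromosome 2 from 152105516 to 152111376, plus strand); it had 37.6, 39.0 and 35.7 CPM at 200 mg/kg, against 49.5, 51.9 and 54.8 CPM in saline, with no overlap (log2 -0.48 ± 0.068, adjusted p = 2.32e-05). Mgst1, a membrane-bound glutathione transferase of the endoplasmic reticulum and outer mitochondrial membrane (ENSMUSG00000008540, chromosome 6 from 138140316 to 138156755, plus strand), had 41.0, 44.0 and 39.5 CPM at 200 mg/kg, against 49.4, 51.9 and 48.3 CPM in saline, again with no overlap (log2 -0.27 ± 0.063, adjusted p = 0.00394). Both calls held under all 23 alternatives. Hmox1, the inducible haem oxygenase (ENSMUSG00000005413, chromosome 8 from 75093621 to 75100589, plus strand), had 6.53, 6.12 and 9.15 CPM at 200 mg/kg, against 11.2, 9.04 and 13.2 CPM in saline. Its libraries overlapped, since the highest treated library lay above the lowest saline library, and the fall (log2 -0.60 ± 0.15, adjusted p = 0.00568) missed the threshold without saline library 3 (adjusted p = 0.0586). Of 6 markers of macrophages, a cell type known to express Hmox1, 4 also fell at 200 mg/kg, with sums of 60.0 to 63.1 CPM at 200 mg/kg and 79.2 to 82.0 CPM in saline and none at 0. Their part in the Hmox1 result was not tested. Gstp1, the pi-class transferase, had 26.6, 23.3 and 24.4 CPM at 200 mg/kg, against 35.6, 31.1 and 25.6 CPM in saline, with overlap, and its call (log2 -0.31 ± 0.10, adjusted p = 0.0373) was lost without saline library 1 or 2 or treated library 2 or 3 (adjusted p 0.101 to 0.22).

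The promoters shown are those of the members that passed as lower at 200 mg/kg and at no other dose, with Gss, Srxn1 and Mgst1 also lower than at 50 and 100 mg/kg when tested directly. Corrected on median transcript length, the difference of Srxn1 from 100 mg/kg did not pass (log2 -0.095, adjusted p = 0.227). Gstp1 differed from neither dose (adjusted p = 0.574 and 0.0808). The promoters bear on NRF2, which binds DNA at the antioxidant response element, whose core was searched here as TGACNNNGC on both strands. The sequences are from RefSeq (GRCm38.p6) and cover the 250 bases before the start, 5′ to 3′ on the strand of the gene, with the motif in capitals. Mgst1 had a further promoter entry (chr6:138141337-138141636), without the motif, which is not shown. Of 45 members 40 had an entry, and Hmox1 was among those without.
Gss, chr2:155592811-155593060, minus strand: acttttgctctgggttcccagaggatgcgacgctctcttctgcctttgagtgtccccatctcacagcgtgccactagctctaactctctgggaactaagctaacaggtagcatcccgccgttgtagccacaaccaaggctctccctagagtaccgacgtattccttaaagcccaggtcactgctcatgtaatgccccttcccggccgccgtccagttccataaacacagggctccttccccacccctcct
Srxn1, chr2:152105274-152105523, plus strand: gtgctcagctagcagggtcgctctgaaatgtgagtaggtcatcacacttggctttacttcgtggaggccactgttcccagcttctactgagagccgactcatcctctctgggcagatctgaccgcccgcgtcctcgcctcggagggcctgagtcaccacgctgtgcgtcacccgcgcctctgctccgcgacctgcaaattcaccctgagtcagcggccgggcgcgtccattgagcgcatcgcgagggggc
Mgst1, chr6:138140277-138140526, plus strand: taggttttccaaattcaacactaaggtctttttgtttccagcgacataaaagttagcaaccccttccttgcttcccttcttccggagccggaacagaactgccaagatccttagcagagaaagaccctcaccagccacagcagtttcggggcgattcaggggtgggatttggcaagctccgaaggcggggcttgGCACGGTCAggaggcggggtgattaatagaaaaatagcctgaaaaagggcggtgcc
Gstp1, chr19:4037913-4038162, minus strand: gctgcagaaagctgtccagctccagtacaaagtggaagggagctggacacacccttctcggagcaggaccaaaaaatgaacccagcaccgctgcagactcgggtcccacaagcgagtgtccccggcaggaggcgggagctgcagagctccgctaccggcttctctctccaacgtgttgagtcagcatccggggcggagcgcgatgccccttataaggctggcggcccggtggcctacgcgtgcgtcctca
The core lies in the Mgst1 promoter on the opposite strand, and in Srxn1 just past the start, at chr2:152105541-152105570 on the plus strand, where the 30 bases around it are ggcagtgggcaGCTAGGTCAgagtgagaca. These letters do not occur in the windows shown for Gss and Gstp1. The sequences shown for Srxn1 and Gstp1 hold tgagtcagc, which differs from the searched core in 1 letter. That form was not searched, here or in the counts that follow. Over the window from 250 bases before to 50 after the start, 10 of the 40 members with an entry held the core (25.0%), beside 3781 of 27025 genes (14.0%). The 10 were Gclm, Gstm5, Gstm7, Mgst1, Nfe2l2, Prdx1, Sod1, Srxn1, Txndc2 and Txnrd1, whose calls against saline ran in both directions: Gclm, Prdx1 and Sod1 passed as higher and Txnrd1 as lower at 100 mg/kg, and Nfe2l2 passed nowhere. Some genes have several promoter entries. Counted by entry, the core lay in 10 of 55 entries of members and in 4071 of 32851 over all genes (12.4%). When an A had to follow the core, 1 member held the motif, Txnrd1, or 2.5% beside 3.45% of genes.

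**Figure D3:**
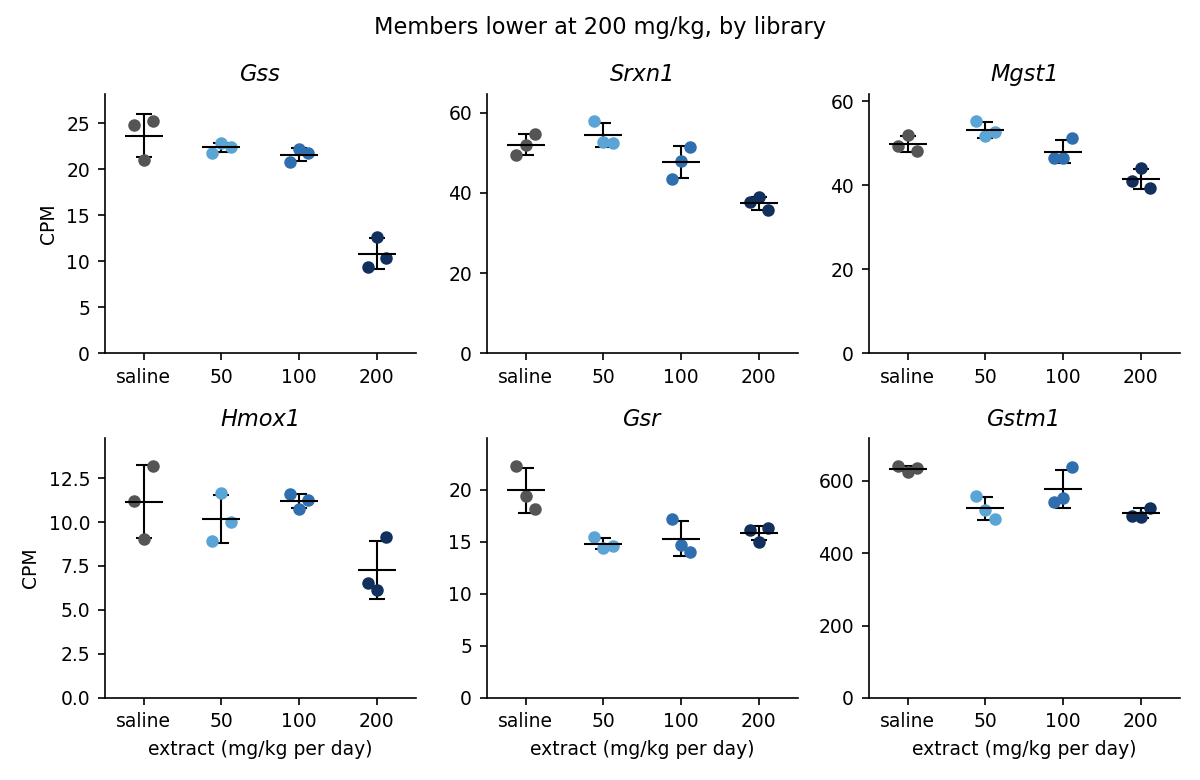
CPM of Gss, Srxn1, Mgst1, Hmox1, Gsr and Gstm1 in each library (points) with the mean and SD of 3 libraries (bars) in saline and at 50, 100 and 200 mg/kg. The 200 mg/kg libraries lie below all saline libraries for every gene shown except Hmox1.

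Of the 2 regulators, Nfe2l2 passed at no dose and Keap1 at 100 mg/kg. Nfe2l2, which encodes NRF2, had 24.1, 22.4 and 22.3 CPM in saline, 22.8, 21.7 and 21.8 CPM at 50 mg/kg, 21.2, 19.4 and 20.7 CPM at 100 mg/kg and 22.5, 21.9 and 21.7 CPM at 200 mg/kg. It passed at 0 of 3 doses (log2 -0.053 ± 0.074, -0.17 ± 0.074 and -0.057 ± 0.074 in rising order of dose, adjusted p = 0.672, 0.0631 and 0.647), although all 3 libraries at 100 mg/kg lay below saline. At 100 mg/kg it passed as lower under 3 alternatives, voom with weights, the correction on principal transcript length and the fit without library 1 of that dose (adjusted p 0.00929 to 0.0465). Keap1 had 48.2, 52.0 and 53.1 CPM at 100 mg/kg, against 41.5, 45.8 and 48.0 CPM in saline, without overlap, and rose (log2 0.18 ± 0.065, adjusted p = 0.0223); the call was lost without saline library 1 or 2 or treated library 2, among 4 alternatives (adjusted p 0.0504 to 0.147). At the other doses Keap1 had log2 values of -0.11 and -0.14, neither past the threshold.

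The quinone reductases of the list differed from each other. Nqo2, a quinone reductase that takes its electrons from dihydronicotinamide riboside, had 70.4, 68.8 and 70.2 CPM at 50 mg/kg and 69.5, 75.4 and 74.8 CPM at 200 mg/kg, against 58.6, 59.9 and 58.6 CPM in saline. Each of these 6 treated libraries exceeded every saline library, and Nqo2 rose at both doses (log2 0.24 ± 0.052 and 0.31 ± 0.052, adjusted p = 0.00209 and 0.000153) under all 23 alternatives. The overlapping gene Serpinb6a gave log2 values of -0.030 and -0.016 at these doses, both short of the threshold. Nqo1, the quinone reductase most often used as a readout of NRF2, was low, with 3.31 to 4.22 CPM in saline, 3.40 to 5.08 CPM at 50 mg/kg, 3.01 to 4.21 CPM at 100 mg/kg and 2.85 to 3.41 CPM at 200 mg/kg. Its libraries overlapped at every dose and it did not pass (log2 0.24 ± 0.18, 0.0055 ± 0.18 and -0.21 ± 0.19). Hmox2, the constitutive haem oxygenase, had 558, 534 and 536 CPM at 50 mg/kg, against 568, 608 and 595 CPM in saline, a small fall without overlap (log2 -0.12 ± 0.039, adjusted p = 0.0331) that was lost without saline library 2 or 3, treated library 2 or 3 or library 1 of the 200 mg/kg group (adjusted p up to 0.16).

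In glutathione synthesis Gclm passed as higher at 100 mg/kg and Gss as lower at 200 mg/kg. Neither passed at the other's dose without a correction for transcript length, and with either correction Gss passed as lower at 100 mg/kg too. Glutamate-cysteine ligase makes the dipeptide that Gss completes; Gclc encodes its catalytic subunit and Gclm the modifier that raises its activity. Gclc had 34.3, 37.4 and 34.8 CPM at 200 mg/kg, against 30.3, 28.7 and 33.1 CPM in saline. All 3 treated libraries were above saline, but the call stood at the threshold (log2 0.21 ± 0.074, adjusted p = 0.0499) and was lost under 13 of 23 alternatives (adjusted p up to 0.231), among them leaving out saline library 1 or 2, any library at 50 or 200 mg/kg or library 2 at 100 mg/kg. Gclm had 51.2, 48.5 and 49.2 CPM at 100 mg/kg, against 40.1, 40.2 and 40.0 CPM in saline, and rose (log2 0.31 ± 0.062, adjusted p = 0.000195) under all 22 alternatives. At 50 and 200 mg/kg Gclm libraries also lay above saline, by log2 0.058 and 0.12, without passing.

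Gsr, glutathione reductase, which returns oxidised glutathione to its reduced form with NADPH (ENSMUSG00000031584, chromosome 8 from 33652523 to 33698163, plus strand), was lower at every dose. It had 22.3, 19.4 and 18.1 CPM in saline, 15.4, 14.4 and 14.6 CPM at 50 mg/kg, 17.2, 14.7 and 14.0 CPM at 100 mg/kg and 16.1, 15.0 and 16.3 CPM at 200 mg/kg. None of the 9 treated libraries reached the lowest saline library. The log2 fold changes were -0.43 ± 0.095, -0.38 ± 0.094 and -0.33 ± 0.094 in rising order of dose (adjusted p = 0.00267, 0.00155 and 0.0162), with no step down from dose to dose. The calls at 50 and 100 mg/kg held under every alternative tried, and that at 200 mg/kg was lost without saline library 1 or treated library 2 (adjusted p 0.0662 to 0.0969).

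In the thioredoxin system, Txnrd1 and Txnrd3 fell and Txn2 and Txndc8 rose at 100 mg/kg. The calls of Txnrd3 and Txndc8 each ended under 1 of 2 corrections for transcript length. Txnrd1, the cytosolic thioredoxin reductase, had 25.1, 27.6 and 23.1 CPM at 100 mg/kg, against 31.0, 32.4 and 32.5 CPM in saline, and fell without overlap (log2 -0.34 ± 0.071, adjusted p = 0.000356). Txnrd3 had 577, 602 and 589 CPM at 50 mg/kg and 598, 570.3 and 529.6 CPM at 100 mg/kg, against 652, 663 and 645 CPM in saline, again with every treated library below saline (log2 -0.15 ± 0.042 and -0.21 ± 0.042, adjusted p = 0.0163 and 0.000227). Its call at 50 mg/kg was lost without saline library 2 or treated library 1 or 3 (adjusted p up to 0.075). Txnrd2, the mitochondrial reductase, was low, with 3.37 to 3.71 CPM in saline, 2.23 to 3.65 CPM at 50 mg/kg, 3.40 to 4.15 CPM at 100 mg/kg and 3.26 to 4.04 CPM at 200 mg/kg, and passed nowhere.

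Txn2, the mitochondrial thioredoxin, had 77.2, 78.4 and 94.1 CPM at 100 mg/kg, against 61.6, 66.5 and 64.5 CPM in saline, and rose (log2 0.37 ± 0.07, adjusted p = 9.85e-05). Txndc8, a thioredoxin of spermatids that is placed at the forming acrosome, had 163, 178 and 197 CPM at 100 mg/kg, against 128, 132 and 135 CPM in saline (log2 0.45 ± 0.058, adjusted p = 7.46e-07). The libraries of the groups did not overlap for either gene, and library 3 was the highest of the 100 mg/kg group for both; without it the log2 values were 0.28 and 0.38. Txndc2, a thioredoxin of the sperm tail, had 858, 886 and 863 CPM at 200 mg/kg, against 839, 795 and 779 CPM in saline. This small rise (log2 0.11 ± 0.037, adjusted p = 0.0376) was lost under 9 of 23 alternatives (adjusted p up to 0.199), among them leaving out saline library 2 or 3 or any treated library at 200 mg/kg, and also library 2 or 3 at 50 mg/kg or library 2 at 100 mg/kg. Txn1, the cytosolic thioredoxin, did not pass against saline, with log2 values of -0.15 ± 0.11, 0.23 ± 0.11 and -0.27 ± 0.12 in rising order of dose (adjusted p = 0.425, 0.0907 and 0.117). Without library 1 of the 100 mg/kg group it passed as higher at that dose (adjusted p = 0.0273). At 200 mg/kg it passed as lower under 3 alternatives.

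Of the 6 peroxiredoxins, which reduce hydrogen peroxide through a reactive cysteine, 2 fell at 50 mg/kg, 5 rose at 100 mg/kg and 1 fell at 200 mg/kg. With a trend on transcript length taken out, the rises of Prdx2, Prdx4 and Prdx6 did not pass on the median length. On the principal transcript Prdx4 turned lower and Prdx2 did not pass (log2 0.039, adjusted p = 0.684). Prdx5, found in mitochondria, peroxisomes and cytosol, had 71.6, 76.5 and 105 CPM at 100 mg/kg, against 59.3, 56.3 and 59.3 CPM in saline (log2 0.53 ± 0.10, adjusted p = 0.000297). Library 3 carried part of this rise, and without it the log2 value was 0.35 (adjusted p = 3.51e-07). The overlapping gene Trmt112 gave 0.12 ± 0.12 at this dose and did not pass. Prdx1, the abundant cytosolic form, had 134, 138 and 157 CPM at 100 mg/kg, against 124, 121 and 122 CPM in saline (log2 0.22 ± 0.056, adjusted p = 0.0016). Prdx6, which also acts on phospholipid peroxides, had 146, 157 and 159 CPM at 100 mg/kg, against 130.1, 138 and 138 CPM in saline (log2 0.19 ± 0.047, adjusted p = 0.00188). For these 3 genes every 100 mg/kg library lay above every saline library.

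Prdx2 and Prdx4 passed in both directions. Prdx2, a cytosolic form, had 31.0, 25.5 and 29.4 CPM at 50 mg/kg and 27.9, 27.0 and 29.3 CPM at 200 mg/kg, against 31.6, 36.2 and 33.9 CPM in saline, and fell at both doses (log2 -0.24 ± 0.08 and -0.27 ± 0.08, adjusted p = 0.0379 and 0.0196). At 100 mg/kg it had 39.0, 36.2 and 42.8 CPM and rose over the same saline libraries (log2 0.21 ± 0.077, adjusted p = 0.0238). Rnaseh2a, which overlaps Prdx2 on the opposite strand at a higher level (483 ± 8.73 CPM in saline), moved the same way, with log2 values of -0.17, 0.35 and -0.19 in rising order of dose (adjusted p = 0.0423, 2.01e-05 and 0.0235); its part in the Prdx2 result was not tested. Prdx4, a peroxiredoxin of the endoplasmic reticulum, had 207, 207 and 195 CPM at 50 mg/kg, against 229, 222 and 218 CPM in saline (log2 -0.14 ± 0.045, adjusted p = 0.038), and 238, 243 and 259.8 CPM at 100 mg/kg over the same saline values (log2 0.15 ± 0.045, adjusted p = 0.00864). These calls were fragile: each of Prdx2 at 50 and 100 mg/kg was lost under 6 alternatives (adjusted p up to 0.21 and 0.684), Prdx2 at 200 mg/kg under 4 (up to 0.113), Prdx4 at 50 mg/kg under 9 (up to 0.194) and Prdx4 at 100 mg/kg under 2 (up to 0.433). Leaving out saline library 3 alone ended all 5; the other libraries whose removal ended at least 1 of them were saline libraries 1 and 2, every 50 mg/kg library, library 3 at 100 mg/kg and libraries 1 and 2 at 200 mg/kg. Prdx3, the mitochondrial form, passed nowhere (log2 -0.029, -0.13 and -0.072 in rising order of dose). Under 2 alternatives it passed as lower at 100 mg/kg, voom with weights and the correction on principal transcript length (log2 -0.33, adjusted p = 0.000258 with the latter).

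Among the dismutases and catalase, the intracellular dismutases rose and catalase fell at 100 mg/kg, while the extracellular dismutase fell at the other doses. The rise of Sod2 ended with a correction on median transcript length and that of Sod1 with one on the principal transcript. Sod1, the copper-zinc dismutase of the cytosol, had 156, 166 and 189 CPM at 100 mg/kg, against 132, 142 and 136 CPM in saline (log2 0.32 ± 0.057, adjusted p = 5.91e-05). Sod2, the manganese dismutase of mitochondria, had 108, 105 and 124 CPM at 100 mg/kg, against 102, 96.5 and 104 CPM in saline (log2 0.16 ± 0.058, adjusted p = 0.0224), and this call was lost without treated library 3 or saline library 2 (log2 0.09, adjusted p = 0.112 without the treated library). Cat, the peroxisomal catalase that splits hydrogen peroxide, had 8.61, 8.23 and 10.8 CPM at 100 mg/kg, against 14.2, 15.1 and 14.5 CPM in saline. All 3 treated libraries were below saline (log2 -0.67 ± 0.11, adjusted p = 2.45e-05), here with library 3 the closest to saline and a log2 value of -0.79 without it. Sod3, the secreted dismutase, had 25.1, 24.6 and 21.6 CPM at 50 mg/kg and 22.8, 23.3 and 23.8 CPM at 200 mg/kg, against 29.2, 29.4 and 27.3 CPM in saline, without overlap (log2 -0.27 ± 0.08 and -0.30 ± 0.08, adjusted p = 0.0194 and 0.0109). The call of Sod3 at 50 mg/kg was lost without saline library 1 or 2 or treated library 3 (adjusted p 0.0595 to 0.137), and that at 200 mg/kg held throughout. At 100 mg/kg Sod3 did not pass (log2 0.076). Corrected on median or principal transcript length, it passed there as higher (log2 0.31 and 0.20, adjusted p = 0.0032 and 0.0354).

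Of the glutathione peroxidases, Gpx4 rose at 100 mg/kg. It had 1208, 1250.0 and 1533 CPM at 100 mg/kg, against 918, 979.7 and 1003 CPM in saline, with every treated library above saline (log2 0.46 ± 0.067, adjusted p = 1.5e-05; log2 0.35 without library 3). At 50 and 200 mg/kg Gpx4 stood at 898 to 909.5 and 853 to 948 CPM and did not pass, with log2 values of -0.10 and -0.093; both passed as lower when library 3 of the 100 mg/kg group was left out of the fit. Gpx8, a peroxidase of the endoplasmic reticulum, had 1.41, 2.04 and 1.55 CPM at 50 mg/kg, against 3.43, 1.97 and 3.09 CPM in saline. The groups overlapped, and the fall (log2 -0.75 ± 0.25, adjusted p = 0.042) was lost under 7 of 23 alternatives (adjusted p up to 0.176), among them leaving out saline library 1 or 3 or treated library 1 or 3. Gpx3, the secreted form, and Gpx7, of the endoplasmic reticulum, passed nowhere against saline; their log2 values ran from -0.33 to 0.13 and from 0.21 to 0.46.

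The 12 glutathione transferases, which attach glutathione to electrophiles, held 6 of the 12 members that fell at 200 mg/kg. Gstm1 (ENSMUSG00000058135, chromosome 3 from 108012255 to 108017973, minus strand), the third most abundant member per length, had 641, 626 and 635 CPM in saline, 559, 519.5 and 495 CPM at 50 mg/kg, 543, 552 and 639 CPM at 100 mg/kg and 504, 501 and 526 CPM at 200 mg/kg. The libraries at 50 and 200 mg/kg all lay below saline, while library 3 at 100 mg/kg fell within the saline range. The log2 fold changes were -0.27 ± 0.052, -0.13 ± 0.052 and -0.31 ± 0.052 in rising order of dose (adjusted p = 0.000638, 0.0335 and 0.000144). The first and last of these held under all 23 alternatives; the call at 100 mg/kg was lost under 7 of 22 (adjusted p 0.0569 to 0.132), among them leaving out saline library 1 or 3 or treated library 1 or 2, and was -0.21 without treated library 3.

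Gstm7, Gstm5 and Gstm6, all of the mu class, and Gstt1 also passed at 200 mg/kg. Gstm7 had 49.5, 53.4 and 50.3 CPM at 50 mg/kg and 48.7, 52.0 and 51.5 CPM at 200 mg/kg, against 61.6, 58.0 and 61.1 CPM in saline (log2 -0.24 ± 0.067 and -0.25 ± 0.067, adjusted p = 0.0152 and 0.0114). Gstm5 had 1385, 1455 and 1698 CPM at 100 mg/kg and 1060.0, 1035 and 1025 CPM at 200 mg/kg, against 1176, 1160.0 and 1172 CPM in saline; it rose at 100 mg/kg (log2 0.37 ± 0.053, adjusted p = 4.73e-06) and fell at 200 mg/kg (log2 -0.17 ± 0.054, adjusted p = 0.0307), with no overlap at either dose. Gstm6 did the same at a lower level, with 29.3, 31.8 and 35.1 CPM at 100 mg/kg and 22.2, 22.3 and 24.2 CPM at 200 mg/kg, against 27.3, 28.2 and 27.7 CPM in saline (log2 0.21 ± 0.075 and -0.27 ± 0.078, adjusted p = 0.0224 and 0.0162). Gstt1, a theta-class transferase, had 5.06, 4.70 and 5.18 CPM at 50 mg/kg and 5.09, 5.01 and 4.88 CPM at 200 mg/kg, against 2.57, 2.92 and 4.34 CPM in saline, and was 1.52-fold and 1.52-fold higher (log2 0.60 ± 0.18 and 0.61 ± 0.18, adjusted p = 0.0196 and 0.0186). Corrected on principal transcript length, the 100 mg/kg values were log2 0.055 for Gstm5 and -0.061 for Gstm6, neither past the threshold. The Gstm5 call at 200 mg/kg was lost without any 1 of the saline or treated libraries (adjusted p 0.056 to 0.0832). Those of Gstm6 ended without saline library 2 or treated library 1 or 2 at 200 mg/kg (0.0571 to 0.0725), and without any 1 saline library or treated library 3 at 100 mg/kg (up to 0.232). Gstm7 lost its call at 50 mg/kg without saline library 1 or 3 or treated library 1 or 3 (up to 0.0651), and at 200 mg/kg without treated library 1 (0.0672). Gstt1 lost its calls without saline library 1 or 2, without treated library 3 at 50 mg/kg (up to 0.114) and without treated library 1 at 200 mg/kg (up to 0.111).

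At 100 mg/kg, 2 further transferases rose. Mgst3, a microsomal transferase with peroxidase activity, had 14.3, 19.4 and 21.3 CPM at 100 mg/kg, against 11.2, 10.1 and 11.8 CPM in saline, the largest rise of any member at this dose (1.67-fold, log2 0.74 ± 0.12, adjusted p = 1.11e-05; log2 0.63 without library 3). Gsto2, an omega-class enzyme that reduces dehydroascorbate, had 319, 346 and 372 CPM at 100 mg/kg, against 284, 273 and 279.7 CPM in saline (log2 0.31 ± 0.049, adjusted p = 9.62e-06). The libraries of the groups did not overlap for either gene. Gstm2, Gsto1 and Gstk1 passed nowhere against saline, with log2 values between -0.22 for Gstk1 and 0.13 for Gsto1, both at 100 mg/kg. Under 3 alternatives, both length corrections among them, Gstk1 passed as lower at this dose (smallest adjusted p = 0.000486). Gstm2 passed as lower on the principal transcript (log2 -0.19, adjusted p = 3.23e-05) but as higher under 2 other alternatives. At 200 mg/kg it passed as lower under 4.

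**Figure D4:**
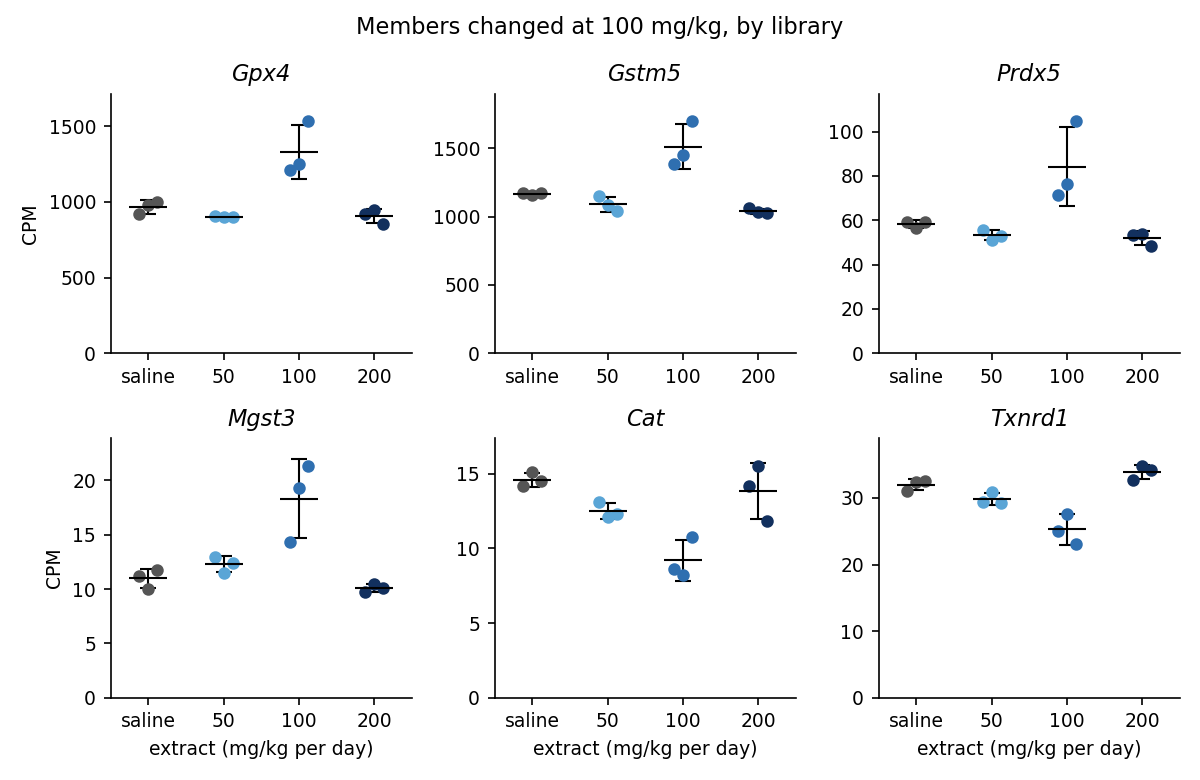
CPM of Gpx4, Gstm5, Prdx5, Mgst3, Cat and Txnrd1 in each library (points) with the mean and SD of 3 libraries (bars) in saline and at 50, 100 and 200 mg/kg. The 100 mg/kg libraries lie above all saline libraries for the first 4 genes and below them for Cat and Txnrd1, and the highest library for the first 4 is library 3 of that group.

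The 100 mg/kg results moved with transcript length. Over 15626 genes with a principal transcript, the log2 fold change and the length had a Spearman rho of -0.488 at 100 mg/kg, against 0.02 at 50 mg/kg and 0.123 at 200 mg/kg; with the median length of each gene's transcripts these were -0.271, 0.0366 and 0.0926 over 15655 genes. Values across genes of the same libraries are not independent. The 44 members are short, with a median principal transcript of 1561 bases against 2901.5 over all genes tested. When the trend on median length was taken out of each library, 20 members passed at 100 mg/kg, 12 higher and 8 lower, of which 15 had passed before. When the trend on the principal transcript was taken out, 27 passed, 11 higher and 16 lower, again with 15 in common. The share of rises among the calls thus turned from 16 of 21 to 11 of 27.

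The correction left some members in place and not others. Cat, Gsr, Txnrd1 and Gstm1 stayed lower under both corrections (log2 -0.69, -0.39, -0.24 and -0.38 on the principal transcript). Mgst3, Prdx5, Txn2, Keap1, Gclm, Prdx1 and Gpx4 stayed higher (on the principal transcript from 0.15 for Gpx4 to 0.58 for Gclm). Txndc8, Gstm5 and Gsto2 kept their calls on the median length but not on the principal transcript, where their log2 values were 0.055, 0.055 and 0.082. Sod1 was 0.41 on the median length, where it still passed, and -0.07 on the principal transcript, where it did not. Prdx4 turned from higher to lower, with a log2 value of -0.16 on the principal transcript (adjusted p = 0.000854). At 50 and 200 mg/kg all calls of members held under both corrections.

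**Figure D5:**
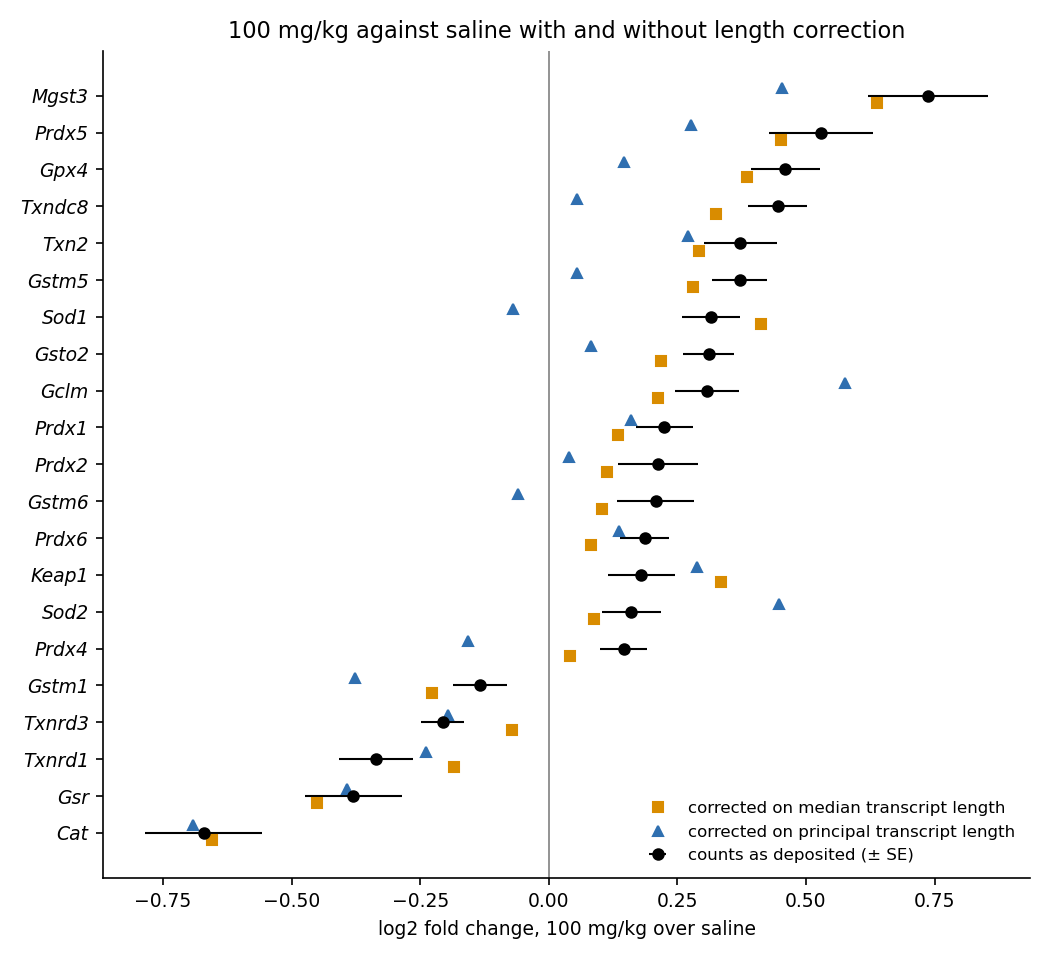
Log2 fold change at 100 mg/kg over saline of the 21 members that passed, from the counts as deposited (black, bars SE) and after taking out a trend on median transcript length (orange squares) or principal transcript length (blue triangles). Cat, Gsr, Txnrd1 and Gstm1 stay left of 0 under both, and Sod1, Prdx4 and Gstm6 cross to the left on the principal transcript.

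Markers of other cell types of the testis moved at the same doses. Of 10 Sertoli cell markers, 6 fell and 1 rose at 50 mg/kg and again at 200 mg/kg, and 4 fell and 1 rose at 100 mg/kg. Their summed level was 1536 to 1569 CPM in saline, 1293 to 1369 CPM at 50 mg/kg, 1417 to 1560.0 CPM at 100 mg/kg and 1183 to 1195 CPM at 200 mg/kg. Of 7 Leydig cell markers 4 fell at each dose, with sums of 1065 to 1099 CPM in saline and 999.5 to 1046, 913 to 1001 and 958 to 996.5 CPM at the 3 doses in rising order. At 100 mg/kg, 5 of 7 markers of round spermatids and 5 of 7 of elongating spermatids rose (1 elongating marker fell), while 5 of 7 of spermatocytes fell and 2 rose. Although most spermatocyte markers fell, their sum was higher, with 5742 to 6139 CPM at 100 mg/kg, against 5370 to 5453 CPM in saline. At 200 mg/kg 4 spermatocyte markers fell and 1 rose. Elongating spermatid markers summed to 20755 to 25157 CPM at 100 mg/kg, against 19005 to 19441 CPM in saline. No defining marker of these lists was at 0. Gpx4, Txndc2 and Txndc8 are known from spermatids; the part of cell make-up in the members' results was not tested. Of 6 lymphocyte markers 3 were tested, and of these 1 rose and 0 fell at 100 mg/kg. The 6 summed to 9.97 to 10.8 CPM at 100 mg/kg, against 2.27 to 3.15 CPM in saline. Of 4 tested blood markers 2 rose and 0 fell at 100 mg/kg, with sums of 41.4 to 51.8 CPM at 100 mg/kg, against 31.4 to 34.3 CPM in saline; their part in the peroxiredoxin results was not tested.

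The rest of the pathway was read from 6 further lists with 117 genes, of which 109 were tested. In all, 12 rose and 12 fell at 50 mg/kg, 37 rose and 28 fell at 100 mg/kg, and 10 rose and 13 fell at 200 mg/kg. These were 22.0%, 59.6% and 21.1% of the tested genes in rising order of dose, beside 17.2%, 52.4% and 18.6% of all genes. Unlike the members, the genes of these lists were not examined under the alternatives. Their values at 100 mg/kg carry no correction for transcript length. Among 17 partners of NRF2 and KEAP1, 2 rose and 3 fell at 50 mg/kg, 4 rose and 6 fell at 100 mg/kg, and 2 rose and 4 fell at 200 mg/kg. Cul3, the ligase scaffold through which KEAP1 marks NRF2, had 488 ± 39.6 CPM at 100 mg/kg and 726 ± 22.4 CPM in saline (SD, n = 3 each; log2 -0.57 ± 0.046, adjusted p = 7.25e-10). Mafk, a small MAF protein that pairs with NRF2 on DNA, had 15.1 ± 0.673 CPM at 100 mg/kg and 10.4 ± 0.257 CPM in saline (log2 0.53 ± 0.098, adjusted p = 7.63e-05), and it also rose at 50 mg/kg (log2 0.46 ± 0.099). Sqstm1, which encodes p62, a protein that draws KEAP1 into autophagy, fell at 200 mg/kg (log2 -0.23 ± 0.055, adjusted p = 0.00489).

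Of 22 tested genes of glutathione transport, breakdown and use, 0 rose and 3 fell at 50 mg/kg, 7 rose and 3 fell at 100 mg/kg, and 1 rose and 2 fell at 200 mg/kg. Slc7a11, the cystine importer that feeds glutathione synthesis, had 14.6 ± 1.34 CPM at 50 mg/kg and 24.1 ± 1.99 CPM at 200 mg/kg, against 19.0 ± 0.906 CPM in saline; it fell at the lower dose (log2 -0.38 ± 0.093, adjusted p = 0.00601) and rose at the higher (log2 0.34 ± 0.088, adjusted p = 0.00809). Slc3a2, the chain that carries it to the membrane, fell at both (log2 -0.18 ± 0.053 and -0.27 ± 0.053, adjusted p = 0.0224 and 0.000892). Glo1, glyoxalase, which clears methylglyoxal with glutathione, rose at 100 mg/kg (log2 0.70 ± 0.085, adjusted p = 3.11e-07). Of 11 other tested transferases, 3 rose and 0 fell at 50 mg/kg, 7 rose and 1 fell at 100 mg/kg, and 3 rose and 1 fell at 200 mg/kg. Gstz1, a zeta-class enzyme of tyrosine breakdown, rose at all 3 doses (log2 0.28 ± 0.070, 0.42 ± 0.069 and 0.29 ± 0.070 in rising order of dose, adjusted p = 0.00683, 2.03e-05 and 0.00474). That set it apart in sign from Gstm1, which fell at the same doses.

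Of 27 other genes linked to thioredoxin, 4 rose and 3 fell at 50 mg/kg, 9 rose and 8 fell at 100 mg/kg, and 1 rose and 1 fell at 200 mg/kg. Txnip, the thioredoxin-binding protein, rose at 50 mg/kg (log2 0.17 ± 0.048, adjusted p = 0.0154), and Sesn3, a sestrin, fell at 100 mg/kg (log2 -0.82 ± 0.10, adjusted p = 5.83e-06). Of 13 genes of NADPH supply, 1 rose and 2 fell at 50 mg/kg, 2 rose and 4 fell at 100 mg/kg, and 1 rose and 4 fell at 200 mg/kg. Me1, malic enzyme, which makes NADPH from malate, fell at all 3 doses (log2 -0.16 ± 0.045, -0.40 ± 0.046 and -0.17 ± 0.045 in rising order of dose, adjusted p = 0.0196, 1.4e-07 and 0.0101). Of 19 genes of selenoprotein synthesis and other selenoproteins, 2 rose and 1 fell at 50 mg/kg, 8 rose and 6 fell at 100 mg/kg, and 2 rose and 1 fell at 200 mg/kg. Sephs2, which makes the selenium donor for the selenocysteine of Gpx4 and the thioredoxin reductases, fell at 50 and 200 mg/kg (log2 -0.18 ± 0.045 and -0.17 ± 0.045, adjusted p = 0.00698 and 0.0102).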

How the data were processed

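Per the labels' protocols, Trizol RNA of frozen testis went into a stranded poly-A library kit. The deposited table, made by the authors, held raw read counts per gene as whole numbers for 21959 Ensembl genes and 12 libraries, and 108 of the identifiers had no symbol. Tools listed in the submitters' processing notes are STAR, featureCounts, Trimmomatic and DESeq2, and the builds are mm10 and GRCm38; the sources used here give no roles, versions, annotation or settings for strand and shared reads. Libraries were grouped by their titles, and total counts ran from 14382378 to 19118265.

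From these counts, edgeR 4.0.16 in R 4.3.3 kept 15682 genes (filterByExpr by group), scaled by TMM and fitted a robust quasi-likelihood model on the 4 groups (8 residual degrees of freedom, common biological coefficient of variation 5.01%). Calls needed a Benjamini-Hochberg adjusted p under 0.05 over all genes tested; the standard error is the size of the log2 fold change over the square root of F. The fit was tested on simulated data. Alternatives were RLE factors, library size alone, no count filter, a mean of at least 1 CPM, DESeq2 1.42.0, limma 3.58.1 voom with sample weights, the 2 groups alone, no 100 mg/kg libraries, replicate number as a block, leaving out each library, and a lowess length correction (span 0.3); the correction on principal transcripts was added after the data were seen. Lengths and positions came from GENCODE M21, promoters from RefSeq.

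The members, the gene lists and the rules were chosen with earlier results of these data known. Members that passed against saline are given by library, 15 of the 45 are named whatever their result, and of each further list at most the 3 genes with the smallest p per dose could be named. A gene that this rule took is not reported here, though it stays in the counts.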

Additional observations from a re-analysis of the deposited data

Results flagged for a closer look

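The 3 doses were compared directly in the same fit, and the members below differed between doses at an adjusted p under 0.05. Single values are given for log2 differences of at least 0.5, for members with calls in opposite directions against saline, and for all that differed between 200 and 50 mg/kg. All values are log2 fold changes ± SE.

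Between 200 and 50 mg/kg, 6 of 44 members differed, 1 higher and 5 lower at 200 mg/kg, beside 5.05% of all genes. Gss was lower at 200 mg/kg by the widest margin (-1.06 ± 0.10, adjusted p = 9.06e-08), followed by Srxn1 (-0.54 ± 0.068, adjusted p = 8.79e-06) and Mgst1 (-0.36 ± 0.062, adjusted p = 0.000533), and these 3 held under every alternative. Gpx3 was lower (-0.46 ± 0.14, adjusted p = 0.0458), as was Gstm6 (-0.31 ± 0.078, adjusted p = 0.0184), while Prdx4 was higher (0.16 ± 0.045, adjusted p = 0.0343). These 3 calls were lost under 13, 4 and 8 of 23 alternatives in the same order (adjusted p up to 0.175, 0.1 and 0.197). Leaving out library 1 or 2 at 50 mg/kg, or library 1 or 2 at 200 mg/kg, ended all 3. Leaving out saline library 2 or library 3 at 200 mg/kg ended those of Gpx3 and Prdx4. That of Prdx4 also ended without library 3 at 50 mg/kg, and that of Gpx3 without saline library 1 or 3 or library 2 at 100 mg/kg.

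Between 100 and 50 mg/kg, 27 members differed, 21 higher and 6 lower at 100 mg/kg, beside 51.5% of all genes. Prdx5 (0.66 ± 0.10), Mgst3 (0.58 ± 0.11), Gpx4 (0.56 ± 0.067), Gstm5 (0.47 ± 0.053), Prdx2 (0.45 ± 0.079) and Prdx4 (0.28 ± 0.045) were higher at 100 mg/kg, with adjusted p between 2.18e-07 and 0.000175. Gstt1 was lower (-0.54 ± 0.17, adjusted p = 0.0116), a call that was lost without library 1 at 100 mg/kg (adjusted p = 0.0588).

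Between 200 and 100 mg/kg, 34 members differed, 7 higher and 27 lower at 200 mg/kg, beside 53.0% of all genes. The members lower at 200 mg/kg were Gss (-1.01 ± 0.10), Mgst3 (-0.86 ± 0.12), Prdx5 (-0.70 ± 0.10), Hmox1 (-0.61 ± 0.15), Gpx4 (-0.55 ± 0.067), Gstm5 (-0.54 ± 0.054), Prdx2 (-0.48 ± 0.079), Gstm6 (-0.48 ± 0.077) and Prdx4 (-0.12 ± 0.045), with adjusted p between 1.55e-08 and 0.0289. Cat (0.59 ± 0.11, adjusted p = 0.000123) and Gstt1 (0.54 ± 0.18, adjusted p = 0.0116) were higher. The Prdx4 call was lost under 9 of 22 alternatives (adjusted p up to 0.945). That of Gstt1 was lost without library 1 at 100 mg/kg (adjusted p = 0.0582). With the correction on principal transcript length, the 2 differences of Prdx4 that involve 100 mg/kg changed sign. It left 23 members differing between 100 and 50 mg/kg (13 higher, 10 lower) and 27 between 200 and 100 mg/kg (11 higher, 16 lower). For 200 over 100 mg/kg, Gpx4 (-0.20), Gstm5 (-0.18), Gstm6 (-0.17), Prdx2 (-0.28) and Prdx5 (-0.41) were among those that shrank, and they still passed. Cat (0.61) and Gstt1 (0.88) did not shrink. Without a correction, the median over the members for 200 over 100 mg/kg was -0.23, beside 0.014 over all genes.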

How the results depend on the processing

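Of 3526 recomputed values of 156 results, 3289 kept their direction and their side of the threshold, 158 lost it, 70 gained it and 9 reversed. All 9 reversals came with the correction on principal transcript length, and the cause was not tested: at 100 mg/kg against saline Hmox2 became -0.12, Txndc2 -0.12, Prdx4 -0.16, Sod1 -0.070, Gstm2 -0.19, Gstm6 -0.061 and Gstm7 -0.14 on the log2 scale, and Prdx4 became -0.017 for 100 over 50 mg/kg and 0.22 for 200 over 100 mg/kg. Under every alternative, 3 of 11 calls of members held at 50 mg/kg (Nqo2, Gsr, Gstm1), 9 of 21 at 100 mg/kg (Gsr, Gclm, Txnrd1, Txn2, Prdx1, Prdx5, Cat, Gpx4, Mgst3) and 6 of 16 at 200 mg/kg (Nqo2, Gss, Srxn1, Sod3, Gstm1, Mgst1).

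With library size alone in place of TMM, 6 members passed at 50 mg/kg, and all genes split into 1759 higher and 878 lower at 50 mg/kg (1444 and 1257 with TMM) and 1792 and 1044 at 200 mg/kg (1612 and 1302 with TMM). Without a count filter the split at 50 mg/kg was 1350 and 1412. Over all genes, voom with weights called 4145 at 50 mg/kg and 1640 between 200 and 50 mg/kg, the 2 groups alone 4439 at 200 mg/kg and 1563 between 200 and 50 mg/kg, and the fit without the 100 mg/kg libraries 1689 between 200 and 50 mg/kg. The stricter motif, with an A after the core, was found in 1 member. Leaving out 1 library at a time gave 3 to 14 members at 50 mg/kg, 17 to 23 at 100 mg/kg, 9 to 23 at 200 mg/kg, 23 to 28 for 100 over 50, 3 to 9 for 200 over 50 and 29 to 34 for 200 over 100 mg/kg. Over all genes these ranges were 1714 to 4013 at 50 mg/kg, 1941 to 4181 at 200 mg/kg and 462 to 1690 for 200 over 50 mg/kg; the lowest for members at 50 mg/kg was without library 3 of that dose, and the highest at 50 and 200 mg/kg without library 3 at 100 mg/kg.

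Replicate numbers do not pair the samples: of 18 pairs with the same number 0 had correlated deviations over 0.1 (from -0.129 to 0.0482), and 6 correlated best with their own number. With the replicate number as a block, 9, 21 and 15 members passed at 50, 100 and 200 mg/kg, and 26, 4 and 33 for 100 over 50, 200 over 50 and 200 over 100 mg/kg. Precision for members of a few CPM, such as Gpx7, Gpx8, Gstt1, Txnrd2 and Nqo1, is limited by depth. The filter on low counts left Gpx1 out; without a filter it was tested and did not pass.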
